A study of Mus musculus with 6 samples.

Results

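The genes considered here are 9 transcription factors of the lineages that compete with bone formation in mesenchymal progenitors. *Pparg*, *Cebpa*, *Cebpb*, *Cebpd*, *Zfp423* and *Klf4* stand for the adipogenic side, and *Sox5*, *Sox6* and *Sox9* for the chondrogenic side. They were listed by name and matched to the deposited values by Ensembl identifier and symbol. Of the 9 factors, 7 had values among the 11234 genes, and *Pparg* and *Sox5* had none and were not analysed here. RNA-seq was carried out on MC3T3-E1 cells, a mouse preosteoblast line from skull bone of strain C57BL/6, at passage 4. The cells were held in serum-free medium for 24 h and then kept for 24 h in complete medium, in 3 control libraries without C3G and 3 libraries with 100 μmol/L C3G (cyanidin-3-O-glucoside, a plant anthocyanin; the labels write the unit as um/l). All 6 libraries come from 1 cell line in growth medium, and no adipogenic or chondrogenic induction is described. Values are FPKM, that is fragment counts scaled to the length of the gene model and to the mapped fragments of the library, and the depth of the libraries is unknown.

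An uncommitted mesenchymal progenitor can become an osteoblast, a fat cell or a cartilage cell, and each fate is driven by a small set of transcription factors. In adipogenesis the bZIP proteins C/EBPβ and C/EBPδ act early and switch on PPARγ and C/EBPα, which then keep each other on and drive the genes of the mature fat cell. KLF4 is an early activator of *Cebpb*, and ZFP423 marks committed preadipocytes and raises *Pparg*. In cartilage SOX9 is the master regulator, and SOX5 and SOX6 help it to activate *Col2a1* and other matrix genes.

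The promoters of *Cebpb*, *Cebpa* and *Klf4* are shown because the first 2 genes moved together between libraries and *Klf4* did not move with them. Each is the stretch of 250 bases that ends just before the start site in RefSeq (GRCm38.p6), written 5′ to 3′ on the strand of the gene. Capitals mark TGACG (the core of a cAMP response element) or its reverse complement CGTCA, and TATAAA or its reverse complement TTTATA; no 2 marked matches overlap.
Cebpb promoter (chr2:167688665-167688914, plus strand): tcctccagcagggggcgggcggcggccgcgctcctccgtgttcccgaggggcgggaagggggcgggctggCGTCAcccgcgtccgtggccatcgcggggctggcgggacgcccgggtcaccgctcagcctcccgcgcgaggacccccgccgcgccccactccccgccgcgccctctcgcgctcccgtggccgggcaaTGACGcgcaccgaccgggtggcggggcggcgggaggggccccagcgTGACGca
Cebpa promoter (chr7:35119043-35119292, plus strand): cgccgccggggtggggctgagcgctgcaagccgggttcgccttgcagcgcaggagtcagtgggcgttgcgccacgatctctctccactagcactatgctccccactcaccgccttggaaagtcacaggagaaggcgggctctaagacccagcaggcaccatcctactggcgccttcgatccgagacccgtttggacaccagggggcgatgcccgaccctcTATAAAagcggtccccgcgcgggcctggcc
Klf4 promoter (chr4:55532476-55532725, minus strand): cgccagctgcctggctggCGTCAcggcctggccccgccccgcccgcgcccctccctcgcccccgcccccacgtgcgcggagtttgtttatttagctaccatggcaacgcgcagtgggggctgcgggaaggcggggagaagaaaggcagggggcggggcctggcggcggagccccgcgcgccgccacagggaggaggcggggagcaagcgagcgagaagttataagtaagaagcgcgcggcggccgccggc
TGACG occurred 3 times before *Cebpb*, once before *Klf4* and not before *Cebpa*, and on either strand it was present in 17.8% of the 32851 RefSeq windows of this length. TATAAA occurred once before *Cebpa*, and 12.4% of all windows held it. The GC content of the stretch was 81.6% for *Cebpb*, 66.4% for *Cebpa* and 74.0% for *Klf4*, against a median of 52.4% over all windows. *Cebpd* and *Sox9* have no entry in the promoter table.

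The cells carried the transcripts of preosteoblasts. Of 14 preosteoblast markers 13 had values (not *Ibsp*), among them *Col1a1* with 923 to 4432 FPKM, *Runx2* with 5.46 to 9.07 FPKM and *Sp7* with 0.237 to 0.857 FPKM. None of 8 markers of mature adipocytes and none of 6 endothelial markers had values here, and of 6 muscle markers only *Des* did. Of 10 chondrocyte markers 7 had values (not *Acan*, *Snorc* or *Col10a1*). Among the 7 were *Col2a1* (the main cartilage collagen) at 35.1 to 104 FPKM and *Cnmd* (chondromodulin) at 32.3 to 57.2 FPKM. Of 8 haematopoietic markers 3 had values, and *Lyz2* was higher with C3G (log2 fold change 0.44, limma p = 0.0315, exact permutation p = 0.1). This call was lost with median centring and without control replicate 3, C3G replicate 1 or C3G replicate 3. The summed FPKM of these 3 was 33.8 to 43.1 in control and 48.4 to 57.2 in C3G libraries, and its part in the other results was not tested. In every gene with values the larger of the 2 group means was at least 0.5002 FPKM, so a gene without values may be expressed below that level. Control replicate 1 stood apart: it correlated with the others at 0.886 to 0.939 and the remaining 5 among themselves at 0.968 to 0.992 (Pearson's r of log2 values across genes, which do not count as independent replicates). Control replicate 1, and less so C3G replicate 1, departed from its own group with the GC content of its transcripts (across genes, rho of Spearman was 0.748 and 0.631).

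*Klf4*, *Sox9* and *Cebpb* were abundant, with medians over the 6 libraries of 61.6, 56.5 and 43.5 FPKM, and their means were higher than those of 94.6%, 94.6% and 95.04% of all genes. *Zfp423* and *Cebpd* followed with medians of 4.24 and 4.03 FPKM, and *Sox6* and *Cebpa* were lowest with 2.09 and 1.15 FPKM. The 3 abundant factors were apart from the other 4, since *Cebpb* did not fall below 40.1 FPKM and *Cebpd*, the highest of the other 4 in a single library, did not exceed 9.18 FPKM. The ranges of the 3 overlapped, as did those of *Zfp423* and *Cebpd* and those of *Sox6* and *Cebpa*. *Sox6*, at most 2.44 FPKM, stayed below *Cebpd*, at least 3.29 FPKM, whereas *Cebpa* reached 3.71 FPKM, above the lowest values of *Zfp423* and *Cebpd*. The order of the 3 differed between libraries. In both groups replicates 2 and 3 gave *Klf4*, then *Sox9*, then *Cebpb*, whereas control replicate 1 gave the reverse. In C3G replicate 1 *Cebpb* and *Sox9* were level (76.5 and 76.4 FPKM), both above *Klf4*.

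**Figure D1:**
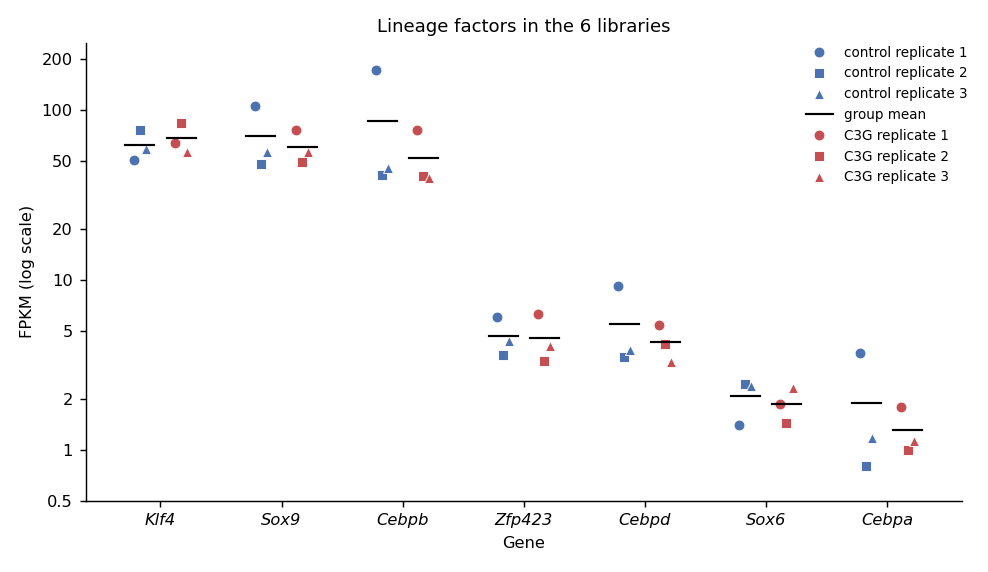
FPKM of the 7 lineage factors (log axis) in each library, with blue points for control and red for C3G libraries, the symbol giving the replicate number and the black line the group mean. Circles (replicate 1) lie highest in both groups for *Sox9*, *Cebpb*, *Zfp423*, *Cebpd* and *Cebpa*, and no gene has groups that part.

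Differences between C3G and control were tested with limma on log2(FPKM + 1) over all genes. A gene was called when its unadjusted p was under 0.05 and its change was at least 1.2-fold. By this rule 73 of 11234 genes (0.650%) were called, and 0 of the 7 factors. At an unadjusted p under 0.05 alone, 74 genes passed in limma and again none of the 7 factors. With adjustment by Benjamini-Hochberg 0 genes passed in limma. When limma was given the replicate block, 169 genes (1.50%) and 0 factors were called. The values of the groups overlapped in all 7 factors, whereas they did not overlap in 4.02% of all genes. Nothing states whether the libraries of a group came from separate cultures, so p-values measure only the spread between these libraries. In bulk RNA, fewer cells that express a gene and less of its RNA per cell cannot be told apart. The exact permutation test of 3 against 3 libraries cannot give a p below 0.1.

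The early adipogenic factor *Cebpb* (ENSMUSG00000056501.3, chromosome 2 of GRCm38, 167688915 to 167690418, plus strand) is a gene of 1 exon that encodes C/EBPβ. Without C3G, replicates 1, 2 and 3 gave 174, 41.5 and 45.5 FPKM, and with C3G they gave 76.5, 41.2 and 40.1 FPKM. Control replicate 1 was far above every other library, C3G replicate 1 was second, and the other 4 libraries lay close together. The means were 86.9 ± 75.1 FPKM (SD, n = 3) in control and 52.6 ± 20.7 FPKM (SD, n = 3) in C3G-treated cells. The fitted log2 fold change came to -0.45 ± 0.570 (SE), its 95% interval reaching from -1.81 to 0.90 (exact permutation p = 0.5, limma p = 0.453, adjusted p = 0.992). Within the numbered pairs the difference was -1.17 for replicate 1, -0.01 for replicate 2 and -0.18 for replicate 3. Without control replicate 1 the log2 fold change turned to 0.20, and with replicates 2 and 3 only it was -0.09. The exon overlaps that of *Tmem189* on the opposite strand, and the authors' use of strand in counting is not stated.

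*Cebpd* (ENSMUSG00000071637.5, chromosome 16, 15887286 to 15891031, plus strand) encodes C/EBPδ, the partner of C/EBPβ in the first hours of adipogenesis. Replicates 1, 2 and 3 stood at 9.18, 3.53 and 3.86 FPKM without C3G, and at 5.41, 4.20 and 3.29 FPKM with it. As for *Cebpb*, the highest library of each group was replicate 1, and the remaining values of both groups were interleaved. The fitted log2 fold change came to -0.22 ± 0.343 (SE), its 95% interval reaching from -1.03 to 0.60 (exact permutation p = 0.8, limma p = 0.550). Without control replicate 1 it was 0.16, and with replicates 2 and 3 only 0.01. Its exons overlap those of *Spidr* on the opposite strand.

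*Cebpa* (ENSMUSG00000034957.10, chromosome 7, 35119293 to 35121928, plus strand) encodes C/EBPα, which acts with PPARγ in the late phase of fat cell differentiation. It was the scarcest factor by its median, with 3.71, 0.798 and 1.18 FPKM (replicates 1, 2 and 3) when C3G was absent, against 1.80, 1.00 and 1.13 FPKM when it was present. Replicate 1 was again highest in both groups. The spread within the control group, 4.65-fold between the lowest and the highest of all libraries, covered all C3G values. The fitted log2 fold change came to -0.21 ± 0.365 (SE), its 95% interval reaching from -1.08 to 0.66 (exact permutation p = 0.8, limma p = 0.582). It was 0.21 without control replicate 1 and 0.06 with replicates 2 and 3 only. The log2(FPKM + 1) scale understates changes at such low values, and the exon overlaps that of *Gm45091* on the opposite strand.

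Of the factors upstream of the C/EBPs, *Klf4* (ENSMUSG00000003032.8, chromosome 4, 55527143 to 55532466, minus strand) encodes a zinc finger protein known as a pluripotency factor and as a regulator of early adipogenesis. Replicates 1, 2 and 3 of the control gave 50.6, 76.8 and 59.3 FPKM, whereas those with C3G gave 63.9, 84.0 and 57.1 FPKM. Here replicate 2 was the highest library of each group, and control replicate 1 was the lowest of all 6. *Klf4* was the only one of the 7 factors with a higher mean in C3G-treated cells, with 68.3 ± 14.0 FPKM (SD, n = 3) against 62.2 ± 13.3 FPKM (SD, n = 3). The replicates of each group spread more widely than this (log2 fold change 0.14 ± 0.227 (SE), its 95% interval reaching from -0.40 to 0.67, exact permutation p = 0.6, limma p = 0.570). Without control replicate 1 nothing of it remained (log2 fold change -0.0009), and with replicates 2 and 3 only the value was 0.04.

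*Zfp423* (ENSMUSG00000045333.15, chromosome 8, 87661810 to 87959595, minus strand) encodes the zinc finger protein of committed preadipocytes. Control cells gave 6.01, 3.64 and 4.39 FPKM (replicates 1, 2 and 3), and treated cells gave 6.32, 3.33 and 4.08 FPKM. The libraries followed each other by replicate number, with replicate 1 highest and replicate 2 lowest in both groups. The pair differences were 0.06, -0.10 and -0.08 for replicates 1, 2 and 3, and the fitted log2 fold change came to -0.04 ± 0.258 (SE; exact permutation p = 0.8, limma p = 0.882). The 95% interval ran from -0.65 to 0.57 without the block and from -0.36 to 0.28 with it. Both intervals still contain the fold change of 1.2 used for calling, in either direction.

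On the chondrogenic side, *Sox9* (ENSMUSG00000000567.5, chromosome 11, 112782224 to 112787760, plus strand) encodes the master regulator of cartilage. Replicates 1, 2 and 3 gave 106, 48.2 and 56.5 FPKM in the absence of C3G, while in its presence they gave 76.4, 49.5 and 56.4 FPKM. The order of the replicates was the same in both groups, with replicate 1 highest, and the values of replicates 2 and 3 were nearly equal with and without C3G (pair differences of 0.04 and -0.003 on the log2 scale). The means were 70.3 ± 31.3 FPKM (SD, n = 3) in control and 60.8 ± 14.0 FPKM (SD, n = 3) in C3G-treated cells. The fitted log2 fold change came to -0.14 ± 0.327 (SE), its 95% interval reaching from -0.92 to 0.63 (exact permutation p = 0.8, limma p = 0.672). It was 0.19 without control replicate 1 and 0.02 with replicates 2 and 3 only.

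*Sox6* (ENSMUSG00000051910.13, chromosome 7, 115470872 to 116038796, minus strand), the partner of SOX9 that had values, was low. Untreated cells gave 1.39, 2.44 and 2.38 FPKM (replicates 1, 2 and 3), while treated cells gave 1.87, 1.43 and 2.30 FPKM. The lowest library was control replicate 1 and the next lowest was C3G replicate 2. *Cebpa*, *Zfp423* and *Sox9* kept the same order of replicates in both groups, and *Sox6* did not. The largest pair difference was the fall of -0.50 in replicate 2. The fitted log2 fold change came to -0.09 ± 0.206 (SE), its 95% interval reaching from -0.58 to 0.40 (exact permutation p = 0.6, limma p = 0.674). With replicates 2 and 3 only it was -0.27.

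Over the 7 factors, 6 means were lower and 1 was higher in C3G-treated cells, with a median log2 fold change of -0.14. Over all genes 38.0% had a lower mean, and the median was 0.06. Without control replicate 1 the fitted changes of *Cebpa*, *Cebpb*, *Cebpd*, *Zfp423* and *Sox9* all turned positive, *Sox6* stayed negative at -0.26 and *Klf4* was near 0. That fit keeps C3G replicate 1, where the factors that turned were also above the mean of C3G replicates 2 and 3. With replicates 2 and 3 only, *Cebpb* (-0.09) and *Zfp423* (-0.09) stayed negative, and *Cebpa*, *Cebpd* and *Sox9* were 0.06, 0.01 and 0.02. In none of the 16 alternative fits was any factor called. The smallest unadjusted limma p in any of them was 0.139, for *Sox6* without control replicate 1. The intervals were wide: for *Cebpb* the 95% interval covered folds of FPKM + 1 from 0.285 to 1.87, and for *Sox6*, the narrowest, from 0.669 to 1.32. At the low FPKM of *Sox6* the added 1 shrinks changes. With a pseudocount of 0.1 its log2 fold change was -0.13, against -0.09 in the main fit.

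**Figure D2:**
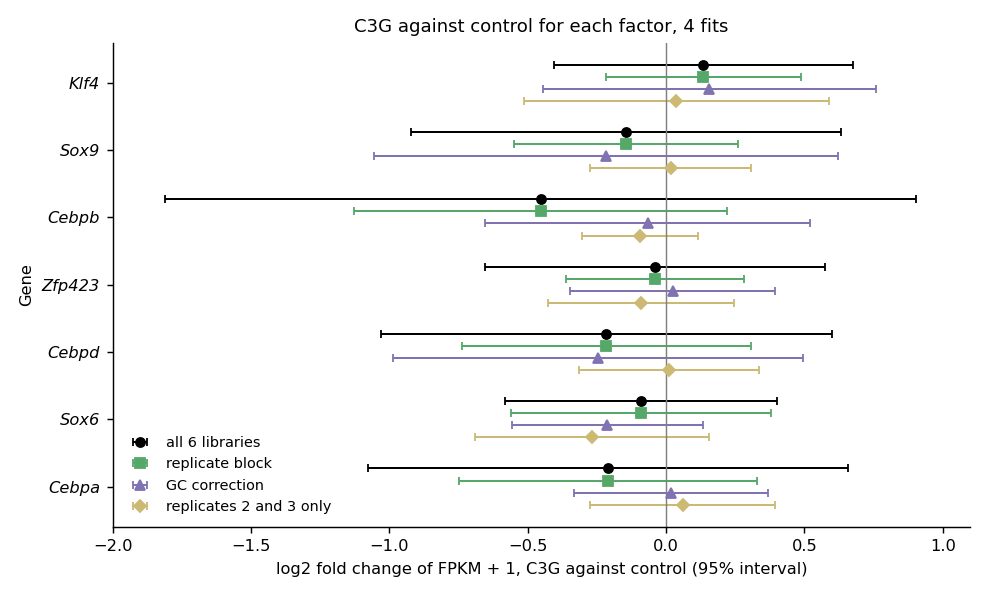
Log2 fold change of FPKM + 1 between C3G and control libraries for the 7 factors, with 95% intervals from 4 limma fits (all 6 libraries, replicate number as a block, correction for GC content, and replicates 2 and 3 only). Every interval contains 0, and the interval of *Cebpb* shrinks from -1.81 to 0.90 in the fit of all libraries to -0.30 to 0.12 with replicates 2 and 3 only.

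The share of a factor's departure that goes with base composition was estimated from all genes, with a smooth curve of the departure of each library on GC content. In control replicate 1, *Cebpb* (67.2% GC in its longest transcript) was 1.97 above the mean of control replicates 2 and 3 on the log2 scale, and the curve at its GC content stood at 1.22. For *Cebpa* (62.6% GC) the departure was 1.25 and the curve 0.87. For *Zfp423* (56.7% GC) they were 0.49 and 0.41, and for *Sox6* (46.1% GC) they were -0.51 and -0.55. In this library these 4 factors departed in the direction of the curve, and the remainders were 0.76 for *Cebpb*, 0.38 for *Cebpa*, 0.08 for *Zfp423* and 0.03 for *Sox6*. That of *Cebpb* was higher than in 93.1% of genes, and in C3G replicate 1 its remainder of 0.50 was higher than in 95.8% of genes. The remainder of *Zfp423* in C3G replicate 1, 0.41, was higher than in 93.4% of genes.

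In control replicate 1 *Sox9*, *Cebpd* and *Klf4* did not depart in the direction of the curve. *Sox9* (49.3% GC) was 1.01 higher in control replicate 1 where the curve stood at -0.23, and the remaining 1.23 was higher than that of 98.4% of genes. *Cebpd* (51.6% GC) was 1.12 higher where the curve was close to 0 (-0.006), and its remainder was higher than that of 97.6% of genes. *Klf4* (54.6% GC) departed by -0.41 where the curve stood at 0.24, and its remainder of -0.65 was higher than that of only 9.03% of genes. In C3G replicate 1 the remainders had the same signs, 0.52 for *Sox9*, 0.33 for *Cebpd* and -0.30 for *Klf4*. There *Sox9* and *Cebpd* departed in the direction of the curve, which stood at 0.005 and 0.11, and *Sox6* departed by 0.02 where it stood at -0.16. After the correction the log2 fold change between the groups was -0.07 for *Cebpb*, 0.02 for *Cebpa* and -0.22 for *Sox9*.

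**Figure D3:**
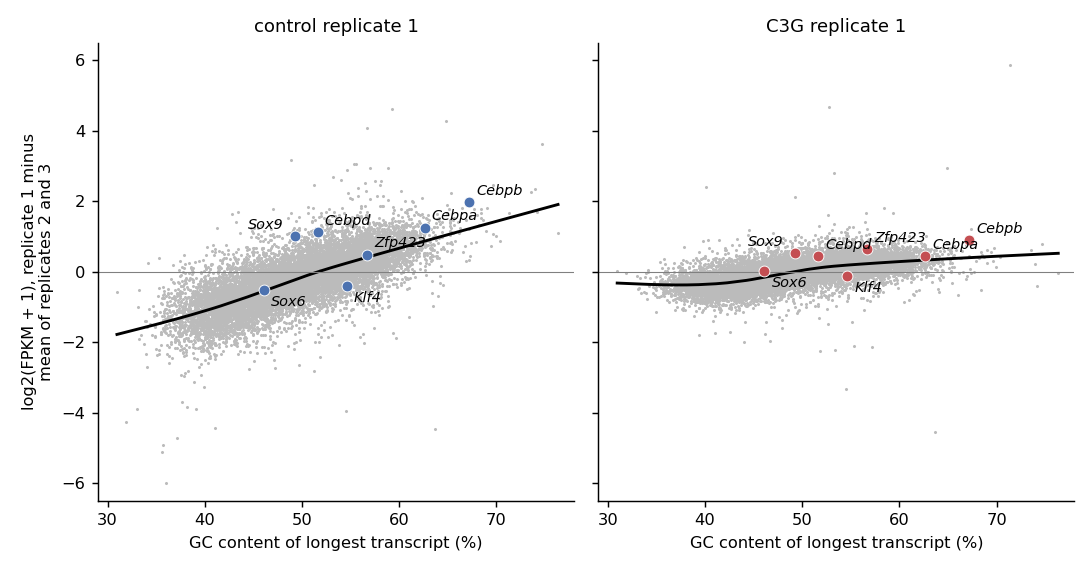
Departure of replicate 1 from the mean of replicates 2 and 3 in log2(FPKM + 1), against the GC content of the longest transcript in percent, for control (left) and C3G libraries (right). Grey points are single genes, the black line is the fitted curve and coloured points are the 7 factors: *Klf4* lies below the line in both panels and the other 6 factors lie above it, *Sox9* by 1.23 and *Sox6* by 0.03 in control replicate 1.

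The genes around these factors were examined in 5 lists. Over all genes 6960 of 11234 had a higher mean with C3G, and the median log2 fold change of 0.06 became -0.001 with the GC correction and -0.011 with replicates 2 and 3 only. Of 47 adipogenic regulators 36 had values, and 0 were called higher and 0 lower. The list holds nuclear receptor partners, cofactors, KLF, GATA, STAT and other transcription factors, Wnt ligands and insulin signaling genes. It was not split into activators and repressors, so its median gives no adipogenic direction. The median log2 fold change was -0.002 (0.035 with replicates 2 and 3 only), with 18 means higher and 18 lower. Among the most abundant were *Tcf7l1* (a repressor of the Wnt pathway), with 27.2 to 56.0 FPKM, *Rxra* (the partner receptor of PPARγ), with 20.3 to 32.0 FPKM, and *Irs1* (an adaptor of the insulin receptor), with 9.27 to 28.0 FPKM. Their log2 fold changes were 0.05, -0.006 and 0.15, each smaller than its standard error. *Irs2* (1.56, 1.57 and 1.59 FPKM in control and 1.21, 1.50 and 1.38 FPKM in C3G libraries) and *Gata3* were the 2 of 36 genes whose groups did not overlap, against 4.02% of all genes, both with lower values in C3G libraries (log2 fold changes -0.123 and -0.085, limma p = 0.360 and p = 0.464, exact permutation p = 0.1 for each).

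Of 36 genes of the adipocyte program 20 had values, 0 were called in either direction, and 13 means were higher and 7 lower with a median of 0.13 (0.034 with replicates 2 and 3 only). *Scd2* and *Scd1*, which encode stearoyl-CoA desaturases, had 295 to 485 and 37.7 to 79.4 FPKM. *Acly* (ATP citrate lyase) had 64.9 to 78.1 FPKM and *Fasn* (fatty acid synthase) 36.6 to 58.8 FPKM. The log2 fold change was 0.27 for *Scd2*, 0.41 for *Scd1*, 0.08 for *Acly* and -0.14 for *Fasn* (exact permutation p = 0.2, p = 0.2, p = 0.5 and p = 0.5). For both desaturases the lowest library was control replicate 1. With replicates 2 and 3 only the value was 0.08 for *Scd1* and 0.045 for *Scd2*, and without control replicate 1 that of *Scd2* was 0.13. Between the groups 1 of the 20 genes did not overlap, against 4.02% of all genes. This was *Adipor2*, a receptor of adiponectin, with 15.4, 16.9 and 19.0 FPKM in control and 23.7, 21.4 and 20.9 FPKM in C3G libraries. It was not called (log2 fold change 0.35, SE 0.153, exact permutation p = 0.1, limma p = 0.0580). *Adipor2* was called in 3 of the 16 alternatives, among them the GC correction (log2 fold change 0.28) with and without the block.

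Of 40 chondrogenic regulators 24 had values, and 0 were called in either direction. The median log2 fold change was 0.14 (0.034 with replicates 2 and 3 only), and 17 means were higher and 7 lower. *Ctnnb1* (β-catenin, which opposes the chondrogenic fate) had 49.9 to 65.1 FPKM and *Tgfbr2* (a receptor of TGF-β) 25.3 to 50.4 FPKM. *Bmpr1a* (a receptor of BMP) had 14.2 to 39.5 FPKM and *Hif1a* (the hypoxia factor of the growth plate) 12.1 to 37.0 FPKM. The last 3 had their lowest value in control replicate 1, and with replicates 2 and 3 only their log2 fold changes of 0.25, 0.27 and 0.28 became 0.08, 0.07 and -0.04. *Fgf18*, a growth factor for chondrocytes, had 2.05, 2.25 and 2.13 FPKM in control and 4.30, 2.56 and 2.92 FPKM in C3G libraries. Its groups did not overlap, as the only 1 of the 24 genes, against 4.02% of all genes. It was not called (log2 fold change 0.42, SE 0.188, exact permutation p = 0.1, limma p = 0.0629). *Fgf18* was called in 3 of the 16 alternatives, among them both fits with the GC correction (log2 fold change 0.47), and its value fell to 0.25 without C3G replicate 1.

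Some of the cartilage matrix genes were expressed in both groups, whereas 13 had no values, among them *Acan*, *Comp*, *Matn3*, *Col10a1* and *Prg4*. Of 33 genes 20 had values, 0 were called in either direction, and 10 means were higher and 10 lower with a median of 0.05, which turned to -0.042 with the GC correction. Of the 20 genes only 1 did not overlap between the groups, against 4.02% of all genes. This was *Chst11*, a chondroitin sulfotransferase, with 10.1 to 10.9 FPKM in control and 11.0 to 11.6 FPKM in C3G libraries (log2 fold change 0.09, SE 0.139, exact permutation p = 0.1). *Fmod* (fibromodulin) was highest with 187 to 330 FPKM. *Ccn1*, a matricellular protein, had 61.1 to 132 FPKM and *Matn2* (a matrilin) 33.1 to 61.4 FPKM. *Col2a1*, the classic target of SOX9, gave 104, 43.7 and 46.9 FPKM (replicates 1, 2 and 3) without C3G, whereas with it the values were 35.1, 38.3 and 43.9 FPKM. Control replicate 1 was highest, as for *Sox9*, whereas C3G replicate 1 was the lowest of all, unlike *Sox9*. Its log2 fold change of -0.61 (SE 0.340, exact permutation p = 0.2, limma p = 0.118) had the smallest p in the list and was -0.14 with replicates 2 and 3 only. *Prelp*, a leucine-rich repeat proteoglycan, was called with the replicate block (log2 fold change 0.41, limma p = 0.0388) and not without it (limma p = 0.195, exact permutation p = 0.4).

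Of 38 relatives of the C/EBP, KLF and SOX factors 17 had values, 0 were called, and the groups overlapped in all 17. Over all genes 4.02% had groups without overlap. The median log2 fold change was 0.07, and 0.002 with the GC correction. *Ddit3* (CHOP, a C/EBP protein of the stress response) had 18.5 to 30.1 FPKM, *Cebpz* 10.2 to 19.6 FPKM and *Klf16* 13.2 to 15.5 FPKM. *Sox4* had 40.3, 10.2 and 16.8 FPKM in control and 24.05, 10.0 and 15.0 FPKM in C3G libraries (replicates 1, 2 and 3), ordered as *Sox9* was. The log2 fold changes of *Ddit3*, *Cebpz*, *Klf16* and *Sox4* were -0.17, 0.09, 0.02 and -0.30, each smaller than its standard error.

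**Figure D4:**
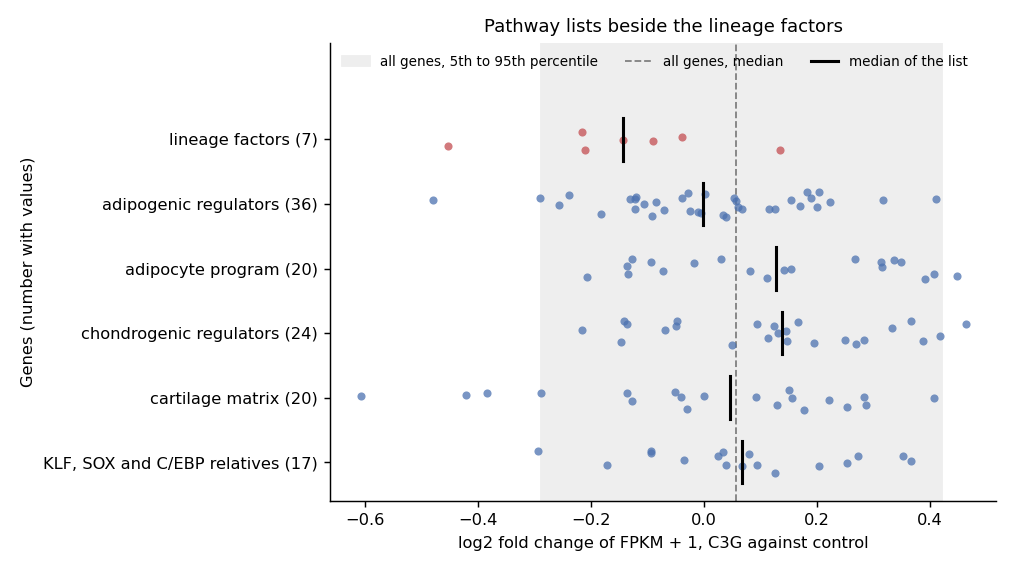
Log2 fold change of FPKM + 1 between C3G and control libraries for the 7 lineage factors (red) and for the genes of the 5 lists (blue, number with values in parentheses), with black bars for list medians. The grey band spans the 5th to 95th percentile of all genes (-0.29 to 0.42) and the dashed line their median; 6 of the 7 factors lie within the band, and *Cebpb* at -0.45 lies outside it.

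The genes most like each factor over the 6 libraries were sought among those with a mean FPKM of at least 1, by Pearson's r of log2(FPKM + 1). These values describe 6 points that share the departures of the libraries with replicate number 1. The 3 closest genes were *Galk1*, *Adck5* and *Rara* for *Cebpb* (r = 0.9997, 0.9996 and 0.9991) and *Lmbr1l*, *Neil1* and *Marc2* for *Cebpa* (r = 0.998 for each). They were *Erf*, *Lpcat4* and *Bri3* for *Cebpd* (r = 0.9966, 0.9964 and 0.9964) and *Rps15a*, *Ap1b1* and *Fah* for *Zfp423* (r = 0.9993, 0.9987 and 0.9955). For *Sox9* they were *Rnaset2b*, *Il11ra1* and *Mpnd* (r = 0.9998, 0.9988 and 0.9985), and for *Sox6* they were *Tfap2a*, *Gm38394* and *Rell1* (r = 0.991, 0.988 and 0.981). *Klf4* was most like *Ccn1*, *Timp2* and *Gm16286* (r = 0.986, 0.982 and 0.979). Such likeness was common for some factors and rare for others. Of 10448 genes, 1697 had an r over 0.9 with *Cebpb*, 1634 with *Cebpa*, 1599 with *Sox9* and 1453 with *Cebpd*, against 598 with *Zfp423*, 115 with *Klf4* and 34 with *Sox6*.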

How the data were processed

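RNA was measured in 6 libraries of MC3T3-E1 cells (3 control, 3 C3G), grouped by the sample titles. The authors prepared stranded libraries, checked reads with FastQC and calculated FPKM per gene with Ballgown, and the deposited FPKM values were used as they stand. The submitters' processing notes also name cutadapt, HISAT2 2.1.0, StringTie, STAR 2.5.2b and the human build hg19, whereas the identifiers are those of mouse genes. Positions, GC content and exon overlaps were taken from GENCODE M21 (GRCm38), whose version numbers equal those of 9828 of the 11234 identifiers and of all 7 factors with values, and 11211 identifiers matched a symbol. Reads and depth behind a value are unknown, so no counting error can be given. In the longest transcripts of the 9 factors 0% of the 75-base stretches occur in transcripts of other genes.

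The log2(FPKM + 1) values of all genes, without a filter, entered a two-sided limma fit (version 3.58.1 under R 4.3.3; lmFit, then eBayes with trend) whose single term was the group, with Benjamini-Hochberg adjustment over all genes. The fit was tested on simulated data with known changes. The simulated noise was independent between libraries, with the spread of replicates 2 and 3. The departures of replicate 1 and those shared by replicate number were therefore not part of that test. The exact permutation test was two-sided on mean log2 values. Tables were made with scipy 1.17.1, numpy 2.4.6 and pandas 2.3.3 under Python 3.11.15. Libraries with the same replicate number in the titles departed together from their group means (correlation across genes 0.653, 0.580 and 0.440 for numbers 1, 2 and 3, against -0.640 to 0.307 for unequal numbers), so the numbers were treated as pairs in an alternative fit. Further alternatives changed the pseudocount to 0.1, kept genes whose mean reached 1 FPKM, dropped the trend or the eBayes step (ordinary linear model), centred libraries on their medians or normalized them by quantiles, and applied a GC correction (natural spline with 5 degrees of freedom) with and without the block. Others used replicates 2 and 3 only or left out each library in turn. Named are all factors, the called and the 4 most abundant genes of each list, and the 3 genes most like each factor. A gene that this rule names is not reported here. *Prelp*, *Chst11*, *Adipor2*, *Fgf18*, *Irs2*, *Gata3*, the marker genes and *Col2a1* as a marker were described after their values were seen. Genes listed under an older and a current symbol were counted once. The factors and lists were chosen with earlier results of these data known.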

Additional observations from a re-analysis of the deposited data

How the results depend on the processing

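The 7 factors stayed uncalled in all 16 alternatives, and of their 112 alternative log2 fold changes 94 kept their direction and 18 turned. With the GC correction, alone or together with the replicate block, *Cebpa* (0.017) and *Zfp423* (0.024) turned, and with replicates 2 and 3 only *Cebpa* (0.060), *Cebpd* (0.010) and *Sox9* (0.017) turned. With single libraries left out the values ran from -0.49 to 0.21 for *Cebpa*, -0.81 to 0.20 for *Cebpb*, -0.43 to 0.16 for *Cebpd*, -0.25 to 0.13 for *Zfp423*, -0.021 to 0.30 for *Klf4*, -0.26 to 0.024 for *Sox6* and -0.37 to 0.19 for *Sox9*. Where leaving out 1 library leaves 2 in a group, the test rests on a pooled spread. The number of genes called, 73, became 48 in the ordinary linear model, 135 with the GC correction, 169 with the replicate block, 246 with both, 191 with replicates 2 and 3 only, and 40 (without C3G replicate 2) to 144 (without control replicate 1) with single libraries left out. The number called in the 5 lists, 0, became 1 in the ordinary linear model, 2 with the GC correction, 1 with the replicate block, 3 with both, 1 with replicates 2 and 3 only, and 0 to 1 with single libraries left out. These counts are out of 112 list genes with values, each counted once, and those before them out of 11234 genes. Apart from these counts and *Prelp*, the replicate block changed no call named in the text. Among the list genes, the GC correction, alone or with the block, turned *Cebpz* (-0.068) and *Rxra* (0.067). Replicates 2 and 3 only turned *Acly* (-0.010), *Cebpz* (-0.075), *Ddit3* (0.079), *Hif1a* (-0.041), *Matn2* (0.015) and *Rxra* (0.081). Quantile normalization turned *Klf16* (-0.013) and *Rxra* (0.00038), and median centring turned *Klf16* (-0.042) and *Tcf7l1* (-0.013). With single libraries left out the ranges that crossed 0 were -0.17 to 0.51 for *Bmpr1a*, -0.10 to 0.39 for *Ccn1*, -0.19 to 0.25 for *Cebpz*, -0.17 to 0.026 for *Ctnnb1*, -0.31 to 0.027 for *Fasn*, -0.21 to 0.56 for *Hif1a*, -0.28 to 0.47 for *Irs1*, -0.017 to 0.087 for *Klf16*, -0.25 to 0.18 for *Matn2*, -0.12 to 0.19 for *Rxra*, -0.72 to 0.22 for *Sox4*, -0.23 to 0.35 for *Tcf7l1* and -0.0089 to 0.46 for *Tgfbr2*. *Lyz2* was no longer called with median centring (0.38) and in 3 of the 6 fits without a library (0.35 to 0.52 over all 6). The cause of these changes was not tested. The files hold no read counts, so the depth limit of single values cannot be given.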
